A study of Mus musculus with 8 samples.

Results

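Subtelomeric peaks of 5-hydroxymethylcytosine (5hmC) were taken from 8 peak lists of mouse hippocampus. For each of the 19 autosomes, the largest peak end over the 8 lists (build mm9) was taken as the distal end, and every peak whose midpoint lay within 3 Mb of it was kept. The rule used position only, not score or group. It kept 13091 of the 393283 peaks in all lists, or 3.33%, in ends that make up 57 Mb or 2.38% of the 2390.7 Mb spanned by autosomal peaks. The other 380063 autosomal peaks are called the rest of the autosomes, and 129 peaks on the X chromosome were not used. The ends are those of the peaks, not of the assembly: on each autosome 1 list alone set the end.

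5hmC is made from 5-methylcytosine by the TET dioxygenases, is abundant in neurons and is found mostly in gene bodies, distal regulatory elements and their flanks. Mouse chromosomes are telocentric: the centromere sits next to the proximal telomere, so a long stretch of gene-bearing sequence leads up to a telomere only at the distal end. Subtelomeric DNA is known for a mixed makeup, with some ends rich in genes and others made of repeats or gene deserts. The hippocampus is needed for forming memories, and richer housing is widely used to stimulate it.

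DNA carrying 5hmC was captured by attaching a modified glucose and then biotin to the mark, and was sequenced, with peaks called by the authors in each sample alone. All mice were C57BL/6. Aged enriched mice were 18 months old and spent 5 h per day for 4 weeks in a large chamber with objects, tunnels and a wheel, whereas aged control mice of 18 months stayed in standard cages. Young enriched and young control mice were 6 weeks old and were kept in the same 2 ways. Each of the 4 groups had 2 samples, and no source used here says whether these were separate mice, so each p-value speaks of the spread among these 8 samples, possibly a technical one. Whole tissue was used, so a change in the mix of cell types and a change within cells cannot be told apart.

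The autosomal lists held 25541 and 30815 peaks in aged enriched, 59241 and 37988 in aged control, 57483 and 59444 in young enriched and 43687 and 78955 in young control samples. Read numbers are unknown, so results are given mostly as shares or ratios within a list. Aged enriched replicate 2 stood apart in peak shape, with a median width of 432 bp in the ends, against 657.5 to 973 bp in the other 7 samples. Results that turn on 1 sample are given with and without it.

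The chromosome ends held more 5hmC peaks per Mb than the rest of the same autosomes in every sample. Aged enriched samples had 14.7 and 16.9 peaks per Mb in the ends, against 10.6 and 12.8 in the rest. Aged control samples had 35.6 and 23.3 peaks per Mb in the ends, against 24.5 and 15.7 in the rest. Young enriched samples had 33.1 and 34.3 in the ends, against 23.8 and 24.6 in the rest. Young control samples had 26.5 and 45.3 in the ends, against 18.1 and 32.7 in the rest. The excess was alike across lists that differed widely in length, with ratios between 1.32 in aged enriched replicate 2 and 1.48 in aged control replicate 2. Ends were 1.41-fold denser by geometric mean (log2 ratio 0.49 ± 0.054, SD, n = 8; higher in 8 of 8 samples; exact two-sided sign-flip permutation test, p = 0.00781, the smallest 8 samples can give; 0.0117 after Benjamini-Hochberg adjustment over 3 ratios). The 8 lists share 1 genome, so this test compares libraries and says nothing about other chromosomes. The first 3 Mb of the autosomes, counted from the first peak at the centromeric side, held fewer peaks than the distal ends in every list, with 7966 in all against 13091.

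Peaks at the ends were only slightly wider than elsewhere, and a larger share of them was strong. The median width in the ends exceeded that in the rest in 8 of 8 samples, by a factor of 1.02 (exact sign-flip permutation test, p = 0.00781; adjusted over 3 ratios, 0.0117). The share of end peaks among the top 10% of their own list by the authors' score was 10.5% and 9.34% in aged enriched, 11.1% and 13.0% in aged control, 11.7% and 12.9% in young enriched and 10.9% and 10.9% in young control samples. In the rest of the autosomes this share lay between 9.88% and 10.0% in all 8 samples. The ratio of ends to rest was above 1 in 7 of 8 samples, with a mean log2 ratio of 0.18 (exact sign-flip permutation test, p = 0.0234, unchanged by the adjustment), and the exception was aged enriched replicate 2. Both features rested on chromosomes 4 and 11, the densest ends: without them the density log2 ratio was 0.23 (exact p = 0.00781), the width log2 ratio was -0.00037 (exact p = 0.961) and the high-score log2 ratio was -0.058 (exact p = 0.305). That omission was chosen after the values by chromosome were seen.

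The density did not climb toward the end. It fell short of the autosomal mean in the last Mb and was highest several Mb inward. Relative to the autosomal mean of the same list, density was 0.702 ± 0.0673 in the last Mb, 1.56 ± 0.0969 at 1 to 2 Mb and 1.92 ± 0.103 at 2 to 3 Mb from the end (mean ± SD, n = 8). Farther in, it was 2.26 ± 0.104 at 3 to 4 Mb and 2.45 ± 0.137 at 4 to 5 Mb, had its highest value, 2.57 ± 0.124, at 7 to 8 Mb, and stood at 1.15 ± 0.0999 at 9 to 10 Mb. It was 1.93 ± 0.159 at 14 to 15 Mb and between 1.42 and 1.62 in each bin from 16 to 20 Mb, so a density above the autosomal mean was not particular to the terminal 3 Mb. The last Mb was at or below 0.808 in each of the 8 samples, and the 1 Mb bins between 3 and 9 Mb were at or above 2.09 in each. In steps of 0.5 Mb the same course was seen, with 0.695 and 0.710 in the outermost steps and 1.403 in the next. Set against the rest of the autosomes, the last Mb had a ratio of 0.698 (range 0.626 to 0.807) and the stretch from 1 to 3 Mb a ratio of 1.76 (range 1.65 to 1.85). The terminal 3 Mb thus had 0.587 times the density of the stretch from 3 to 9 Mb (range 0.571 to 0.620 over the 8 samples). These zones were set after the profile was seen and carry no test. At the boundary of 3 Mb itself, 128 peaks lay within the last 25 kb inside and 172 within the first 25 kb outside, with median widths of 853.5 and 797.5 bp.

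**Figure D1:**
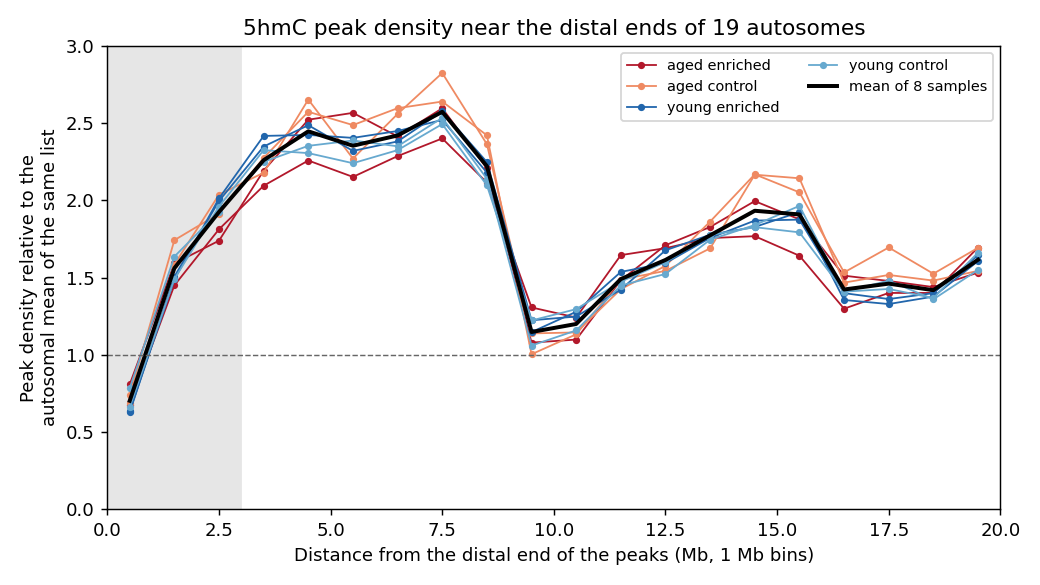
Peak density by distance from the distal end in bins of 1 Mb (x axis, Mb), pooled over 19 autosomes and divided by the autosomal mean of the same list (y axis), with 1 line for each sample coloured by group. All 8 lines start at or below 0.808 in the last Mb and stand at or above 2.09 between 3 and 9 Mb.

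Chromosome ends differed far more from each other than samples did. The densest was that of chromosome 11, with 78.4 ± 27.1 peaks per Mb (mean ± SD, n = 8), against 27.4 ± 9.76 in the rest of that chromosome. Its end held 120 and 128 peaks in aged enriched, 284 and 222 in aged control, 280 and 274 in young enriched and 216 and 358 in young control samples. Chromosome 4 followed with 71.5 ± 23.6 peaks per Mb, against 22.9 ± 8.40 in its rest. Its end held 119 and 126 peaks in aged enriched, 282 and 188 in aged control, 252 and 247 in young enriched and 190 and 313 in young control samples. Both ends were above their own chromosome in every list, and together they held 27.5% of all end peaks. Chromosome 5 was the next densest, with 48.6 ± 19.4 peaks per Mb against 25.1 ± 9.11 in its rest, and its level did not stand clear of chromosome 9, at 47.6 ± 19.96, or of chromosome 10, at 42.6 ± 15.1. The 5 densest ends held 52.9% of the end peaks.

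At the other extreme, several ends were almost free of peaks. Chromosome 18 had 5 end peaks over all lists, with 0 and 2 in aged enriched, 0 and 0 in aged control, 0 and 1 in young enriched and 2 and 0 in young control samples. Its end was 0.208 ± 0.305 peaks per Mb, against 20.2 ± 7.52 in its rest. Chromosome 3 had 5 and 5 end peaks in aged enriched, 3 and 1 in aged control, 6 and 3 in young enriched and 11 and 9 in young control samples, which is 1.79 ± 1.10 per Mb against 14.6 ± 5.47 in its rest. Chromosome 13 had between 5 and 20 end peaks in a list, or 4.29 ± 1.74 per Mb against 17.5 ± 6.46. Their levels did not overlap with those of chromosomes 4 and 11 in any list. In all, 11 autosomes had a denser end than rest in each of the 8 samples, 7 had a sparser end in each, and chromosome 1 had a sparser end in all but 1 sample. The median of the 19 ratios was 1.41, about the pooled ratio.

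**Figure D2:**
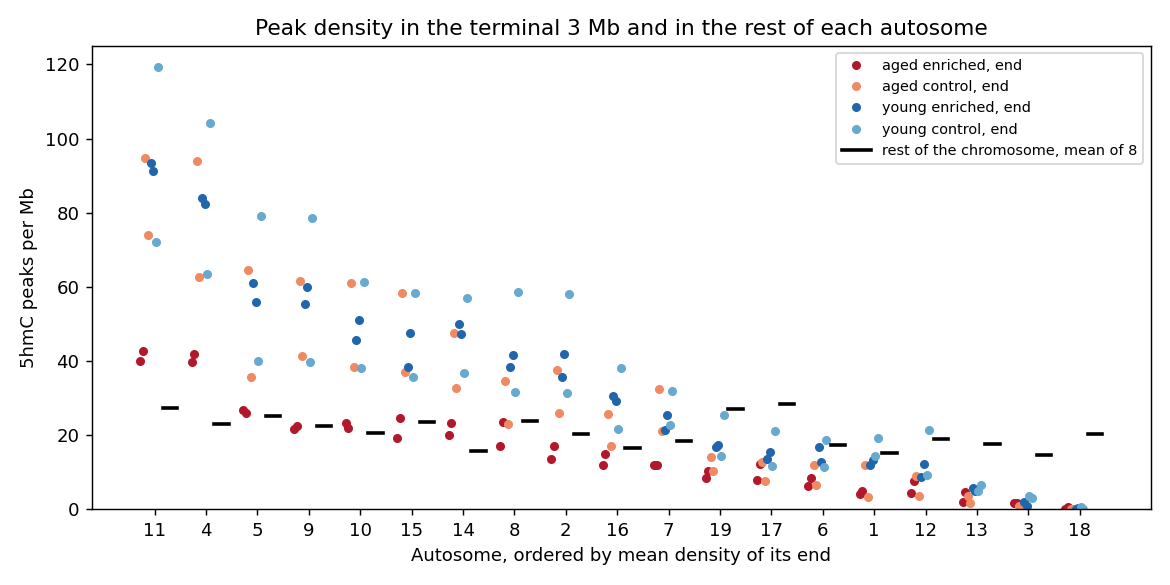
Peaks per Mb (y axis) in the terminal 3 Mb of each autosome, with a point for each of the 8 samples, coloured by group. Short horizontal lines give the mean of the rest of the autosome, and autosomes are ordered by the mean density of the end (x axis). Chromosomes 11 and 4 lead with means of 78.4 and 71.5 peaks per Mb, and chromosomes 13, 3 and 18 are lowest with 4.29, 1.79 and 0.208.

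The low last Mb was a feature of most, but not all, autosomes. On 14 of 19 its mean density was below that of the rest of the chromosome, and on chromosomes 4, 5, 7, 10 and 11 it was above. Chromosome 4 kept 65.0 peaks in the last Mb on average, beside 92.1 at 1 to 2 Mb and 57.5 at 2 to 3 Mb. Chromosome 14 showed the opposite layout, with 0.625 peaks in the last Mb, 16.6 at 1 to 2 Mb and 100.75 at 2 to 3 Mb, so that its end was 2.53-fold denser than its rest through the inner part alone. Chromosome 8 likewise held 2.25 peaks in the last Mb and 49.4 and 49.1 in the next 2. The median list stopped 0.12 kb short of the end on chromosome 19 and 4016 kb short on chromosome 18, and over 500 kb short on 5 autosomes (6, 8, 12, 14 and 18). On those autosomes much of the last Mb lay beyond the last peak of the median list. Chromosomes 13 and 19, with median gaps of 0.24 and 0.12 kb, had a sparse last Mb too, at 0.114 and 0.0923 times the density of their rest. How far the choice of end lowers the density of the last Mb was not tested.

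Pooled over the autosomes, coding genes were also denser at chromosome ends, but not on every autosome. In the RefSeq annotation of GRCm38, a later build than that of the peaks, 729 of 20665 autosomal coding genes (3.53%) lay in the distal 3 Mb counted from the last gene, which is 1.52 times the density elsewhere. On single autosomes this ratio ran from 0.087 on chromosome 17 to 6.41 on chromosome 10. On chromosomes 2, 4, 7, 9, 10, 11, 15 and 16 the end was denser than the rest in both genes and peaks. Chromosomes 5, 8 and 14 had ends denser in peaks but not in genes (gene ratios 0.834, 0.478 and 0.727). The reverse held for chromosomes 6 and 13 (gene ratios 1.15 and 1.08, mean peak ratios 0.670 and 0.249). Over the 19 autosomes, end peak density and end gene number were related with a Spearman rho of 0.66 and a Pearson r of 0.64, a description over points that share the same 8 lists. Chromosomes 11 and 4 had 84 and 70 genes in their ends, whereas chromosomes 3 and 18 had 11 and 6. The relation had exceptions: chromosome 14 had 15 genes with 39.3 peaks per Mb, chromosome 8 had 12 genes with 33.6 peaks per Mb, and chromosome 10 had 134 genes, many of them olfactory or vomeronasal receptor genes, with 42.6 peaks per Mb. Because the builds differ, no peak was assigned to a gene and no sequence was read.

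The genes at these ends in GRCm38 nonetheless show what such regions hold. Of a list of 31 genes with roles in neurons, 24 lay in the distal 3 Mb. On the dense end of chromosome 4 these were Gabrd, a subunit of extrasynaptic GABA-A receptors, Agrn, the organiser of acetylcholine receptors at the neuromuscular synapse, Gnb1, a G protein subunit, and the transcription regulator Prdm16. On chromosome 11 they were Baiap2, a postsynaptic scaffold protein, Rptor, a subunit of the growth regulator mTORC1, and the kinase gene Aatk. Chromosome 2, whose end had 32.7 ± 14.2 peaks per Mb, holds Chrna4, a nicotinic receptor subunit. The sparse end of chromosome 3 holds a neuronal gene too, Negr1, which encodes an adhesion protein. All 17 genes of a list drawn from the imprinted neighbourhood of distal chromosome 7, among them H19, Igf2, Cdkn1c and Kcnq1, lay in that chromosome's end, which had 22.3 ± 7.74 peaks per Mb against 18.3 ± 6.43 in its rest. The list of neuronal genes was chosen for lying near these ends, so its count is no evidence of enrichment.

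Overlapping peaks of all lists merged into 4967 end regions, out of 156660 autosomal regions. Most were seen in few samples: 2191 end regions (44.1%) had a peak in 1 sample, against 46.8% in the rest of the autosomes and 46.7% over all regions. A peak in all 8 samples was found in 82 end regions (1.65%), against 1.30% in the rest and 1.31% over all. Of these 82, 20 lay on chromosome 11 (3.50% of its end regions), 19 on chromosome 4 (3.64%) and 8 on chromosome 9 (1.85%). Chromosomes 10 and 14 had 7 each (2.10% and 2.27%). Chromosome 5, also a dense end, had 4 (0.830%), and the sparse end of chromosome 17 had 2 (1.59%). Chromosomes 3, 6, 12, 13, 16 and 18 had none. The median width was 704 bp for end regions of 1 sample and 2598.5 bp for those of all 8, but regions merged from more peaks are wider by construction. In each list, a larger share of end peaks than of other peaks fell in regions of all 8 samples, for example 12.3% against 10.1% in aged enriched replicate 1 and 4.34% against 3.56% in young control replicate 2. No test was made of these shares, since every list helps to define the regions.

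The strongest shared regions lay 266 to 2659 kb from the end, on 5 chromosomes. Each had a score of 100 or more in all 8 lists. That is no equal bar: the median score of end peaks was 118 in aged enriched replicate 2 and 62.0 to 80.8 in the other lists. The leading one, on chromosome 4 at 154528712 to 154536343 (7632 bp), had scores of 152 and 158 in aged enriched, 567 and 358 in aged control, 587 and 847 in young enriched and 962 and 921 in young control samples. Score levels differed between lists, so ranks within a list are the fairer measure. The leading region ranked at 98.2% and 83.7% in the aged enriched lists and at or above 99.8% in the other 6. The next, on chromosome 9 at 121670291 to 121677618, ranked at 99.4% and 49.4% in aged enriched lists and at or above 99.6% in the others. The third, on chromosome 10 at 126985010 to 126998282, was also the widest end region of all, at 13273 bp, and ranked at 99.8% and 63.1% in aged enriched lists and at or above 99.4% in the others. In each of these, and of the next 3, the list of aged enriched replicate 2, the one with narrow peaks, ranked lowest.

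That list ranked the remaining 3 higher than the first 3. A region of 2169 bp on chromosome 17 at 91486674 to 91488842 ranked at 99.9% and 95.3% in aged enriched, 99.5% and 98.4% in aged control, 99.8% and 99.7% in young enriched and 99.7% and 99.7% in young control lists. It lay 266 kb from the end of a chromosome whose terminal 3 Mb was otherwise sparse, at 12.8 ± 4.23 peaks per Mb against 28.5 ± 10.1 in its rest. A second region on chromosome 9, at 121888651 to 121894226, ranked at 93.0% and 89.4% in aged enriched lists and at or above 98.7% in the others. The last, on chromosome 11 at 118940877 to 118944921, ranked at 99.7% and 96.0% in aged enriched lists and at or above 98.6% in the others. All 6 regions are given in mm9 and were chosen by their median rank, so these ranks are a description.

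**Figure D3:**
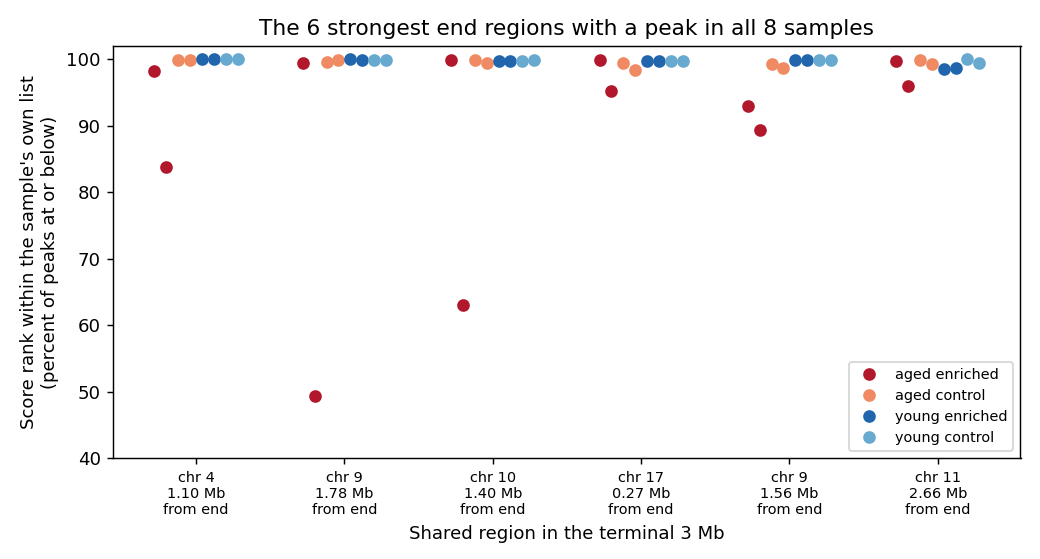
Rank of the score within each sample's own list (y axis, percent of peaks at or below) for the 6 strongest end regions with a peak in all 8 samples (x axis, chromosome and distance from the end). Most points lie above 98%, and aged enriched replicate 2 is lowest in all 6 regions, at 83.7%, 49.4% and 63.1% in the first 3.

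The share of peaks that lay at chromosome ends did not differ detectably with age. It was 3.29% and 3.13% in aged enriched and 3.43% and 3.49% in aged control samples, and 3.28% and 3.29% in young enriched and 3.45% and 3.27% in young control samples. The mean was 3.33% ± 0.162 in aged mice and 3.32% ± 0.0879 in young mice (n = 4 each, ± SD), and the groups overlapped (log2 difference 0.0040; exact two-sided permutation test, p = 0.914). Absolute amounts were lower in aged samples, as were whole lists: the ends held 1290.25 ± 535 peaks in aged mice and 1982.5 ± 444 in young mice (n = 4 each, ± SD; exact permutation test, p = 0.114), and the median width of end peaks was 687 ± 195 bp in aged and 930 ± 39.5 bp in young samples (exact p = 0.0571). The length under end peaks was 1066 ± 731 kb in aged and 2125 ± 571 kb in young samples (exact p = 0.0857). None of these passed the threshold, and the smallest p that 4 samples against 4 allow is 0.0286.

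Enriched samples gave a slightly smaller share of their peaks to the ends than control samples, within the spread of the samples. The share averaged 3.25% ± 0.0790 with enriched housing and 3.41% ± 0.0990 with control housing (n = 4 each, ± SD; log2 difference -0.071; exact permutation test, p = 0.114; 0.320 after adjustment over 14 comparisons of end measures). Only young control replicate 2, at 3.27%, overlapped the enriched samples, and without it the groups no longer overlapped, which fixes the exact permutation p at the smallest possible value, 0.0286 (log2 difference -0.091). Without any other single sample the exact p was between 0.114 and 0.171. In aged mice the ratio of the enriched to the control share was 0.927 and in young mice 0.978, and the difference between these was not detectable (exact permutation test of the interaction, p = 0.389; the smallest possible is 0.0556). The share of peak length at the ends behaved alike, at 3.33% ± 0.130 in enriched and 3.53% ± 0.130 in control samples (n = 4 each; exact p = 0.0571).

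**Figure D4:**
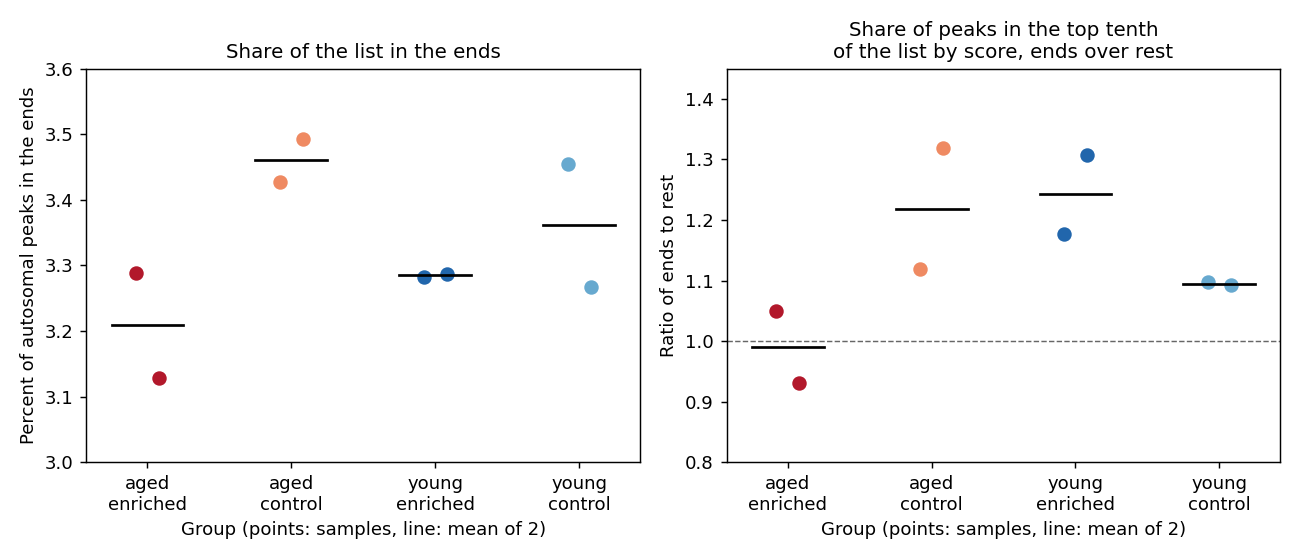
Per-sample values (points) and means of 2 (lines) for aged enriched, aged control, young enriched and young control samples, showing the share of the list at chromosome ends and the ratio of high-score shares, ends to rest. Shares run from 3.13% to 3.49% and ratios of high-score shares from 0.931 to 1.32, with the age groups overlapping in both.

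To compare single ends, peaks were counted in 3 Mb segments tiled from the distal end of each autosome, and limma was fitted to all 694 segments that averaged at least 5 peaks per sample. The values were log2 of the peaks, with 1 peak added, divided by the length of the list, so a difference is one of shares of the list. The added peak shrinks differences where peaks are few, and it also raises the share more in a shorter list: in aged mice the median log2 difference over all segments was 0.13, and 0.11 with the added amount in proportion to list length. Of the 19 ends, 18 were tested and chromosome 18 had too few peaks. In aged mice, 3 of the 18 ends differed between enriched and control housing at an adjusted p under 0.05, against a background of 16.1% of all segments (11.4% higher and 4.76% lower in enriched), so the ends were called about as often as other segments. The median log2 difference was 0.01 over the ends and 0.13 over all segments, and 10 of 18 ends and 225 of 694 segments had an unadjusted limma p under 0.05.

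The end of chromosome 17 held a larger share of the list in aged enriched mice. It had 24 and 37 peaks in aged enriched and 38 and 23 in aged control samples, or 0.940 and 1.20 per 1000 peaks of the list in aged enriched against 0.641 and 0.605 in aged control samples. Both aged enriched shares were higher than both aged control shares (log2 difference 0.77 ± 0.20, SE; limma adjusted p = 0.0179). The almost empty end of chromosome 3 was also higher in share, with 0.196 and 0.162 per 1000 peaks in aged enriched against 0.0506 and 0.0263 in aged control samples (log2 difference 1.84 ± 0.59; limma adjusted p = 0.0373). That value rests on 5 and 5 peaks in aged enriched against 3 and 1 in aged control samples. With 0.25 peaks added instead of 1, chromosome 3 no longer passed (2.14, limma adjusted p = 0.0513). Nor did it pass with the added amount in proportion to list length (1.79, limma adjusted p = 0.0545). The end of chromosome 9 was lower in share, with 65 and 67 peaks, or 2.54 and 2.17 per 1000, in aged enriched against 185 and 124 peaks, or 3.12 and 3.26 per 1000, in aged control samples (log2 difference -0.43 ± 0.13; limma adjusted p = 0.0249). The 7 densest ends (11, 4, 5, 9, 10, 15 and 14) all lay below 0 and the 7 sparsest tested (19, 17, 6, 1, 12, 13 and 3) all above it, whether or not they passed. The next smallest p among the lower ends was that of chromosome 15 (log2 difference -0.32 ± 0.13; limma adjusted p = 0.0884).

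Peak number moved with this result over the whole genome. Segments called higher in aged enriched samples had a median of 36.4 peaks per sample, those called lower 137 and all tested segments 56. The aged enriched group also had the fewest peaks per list. With all lists shortened to equal length, chromosomes 17 (0.64, limma adjusted p = 0.0777) and 9 (-0.36, limma adjusted p = 0.0681) no longer passed, chromosome 3 had too few peaks to be tested, and of 17 ends 0 were called higher and 3 lower in aged enriched samples, beside 25.1% of all segments called. With scores of at least 100, the difference was -0.030 on chromosome 9 (limma adjusted p = 0.962) and 1.13 on chromosome 17 (limma adjusted p = 0.143). With the 4 aged samples alone, 0 ends were called, beside 3.27% of all segments. Calls over the ends and over all segments moved when single samples were left out. Each such fit leaves a group with 1 sample, so only differences are given. They ran from 0.60 to 0.94 on chromosome 17 and from -0.54 to -0.31 on chromosome 9. On chromosome 3 they ran from 1.66 to 2.02 in the 6 fits that tested it.

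**Figure D5:**
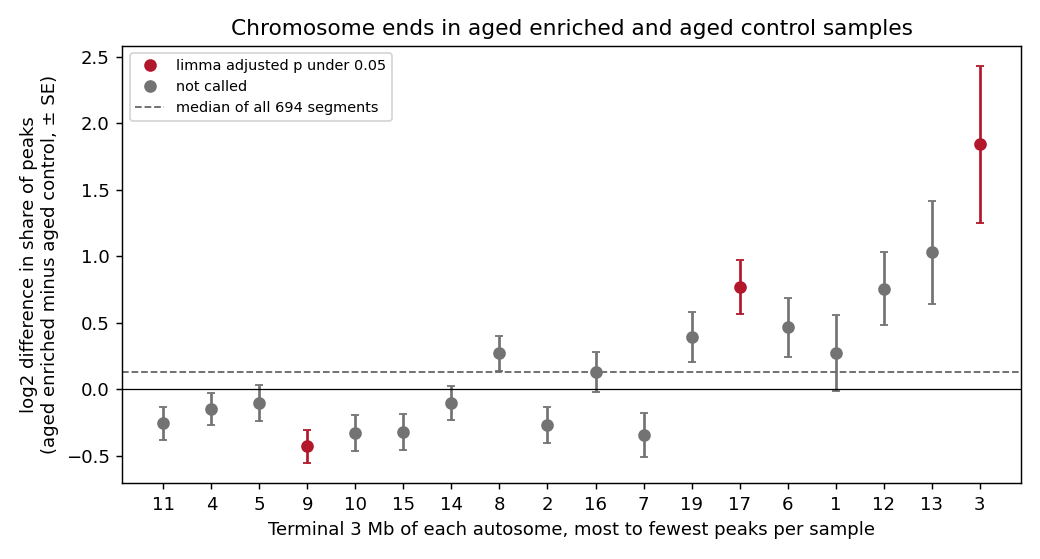
Difference in share of peaks between aged enriched and aged control samples (y axis, log2, with SE bars from limma) for the terminal 3 Mb of each autosome, ordered from most to fewest peaks per sample (x axis). Ends called at an adjusted p under 0.05 are marked, namely chromosomes 9 (-0.43), 17 (0.77) and 3 (1.84), and the dashed line is the median of all segments, 0.13.

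In young mice, limma called 0 of the 18 ends and 0% of the 694 segments between enriched and control housing, and 0 ends and 7 segments had an unadjusted p under 0.05. The end differences ran from -1.04 on chromosome 3, where young enriched samples had 6 and 3 peaks and young control samples 11 and 9, to 0.10 on chromosome 14, with 150 and 142 peaks in young enriched and 110 and 171 in young control samples. Whether the housing difference itself changed with age was tested in the same limma fit: 0 of 18 ends and 0 of 694 segments passed, 6 ends and 122 segments had an unadjusted p under 0.05, and the smallest adjusted p was 0.0978, for chromosome 3. Over all mice, limma called 0 ends and 0 of 694 segments between enriched and control housing, with 5 ends and 131 segments at an unadjusted p under 0.05. Without aged enriched replicate 1, 6 of 18 ends and 157 of 698 segments passed in that comparison.

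Between aged and young samples limma called 0 of the 18 ends, against 0.576% of all segments. An unadjusted limma p under 0.05 was found for 3 ends and for 87 of 694 segments. The end of chromosome 1 showed the largest difference, with 12 and 15 peaks in aged enriched and 36 and 10 in aged control samples, against 36 and 40 in young enriched and 43 and 58 in young control samples. Per 1000 peaks of the list this was 0.470 and 0.487 in aged enriched and 0.608 and 0.263 in aged control samples, against 0.626 and 0.673 in young enriched and 0.984 and 0.735 in young control samples, so every aged share was below every young share (log2 difference -0.70 ± 0.20; limma adjusted p = 0.136). With each of the 8 samples left out in turn, the log2 difference on chromosome 1 ran from -0.98 to -0.42. Each such fit leaves a group with 1 sample, so only differences are given. The end of chromosome 15 lay higher in aged samples by 0.22 ± 0.093 on the log2 scale and that of chromosome 2 lower, at -0.20 ± 0.096, neither of which passed (limma adjusted p = 0.338 and 0.388).

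With all samples, at most 6.26% of end regions separated the groups in any 1 comparison and direction. A peak in both aged enriched samples and in neither aged control sample was found in 18 end regions (0.362%), against a background of 0.562% of all regions. The reverse was found in 311 end regions (6.26%, background 5.6%). Leaving out aged enriched replicate 1 or 2 changed the first count to 490 or 298, and leaving out aged control replicate 1 or 2 changed it to 64 or 32. The second count became 760 or 1268 without aged control replicate 1 or 2, and ran from 418 to 1268 over all 4 such fits. Counts without single samples are given without the share of all regions, so they say nothing particular about the ends. Of the regions of both aged enriched samples alone, the highest in rank lay on chromosome 10 at 127760326 to 127761150, with scores of 101 and 199 and no peak in any other sample. Of the regions missing in aged enriched samples, the highest in rank was on chromosome 15 at 101940783 to 101943766, with scores of 330 and 205 in aged control, 143 and 114 in young enriched and 277 and 109 in young control samples.

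In young mice, 96 end regions (1.93%, background 2.13%) had a peak in both young enriched and neither young control sample, and 140 (2.82%, background 2.78%) had the reverse. Without young enriched replicate 1 or 2 the first count was 504 or 477, and without young control replicate 1 or 2 it was 134 or 385. The second count was 271 or 287 without young enriched replicate 1 or 2, and 854 or 451 without young control replicate 1 or 2. Here too, counts without single samples stand without the share of all regions. The highest ranked of the first kind lay on chromosome 19 at 59050641 to 59052693, with scores of 164 and 99.2 in young enriched samples, and was also present in aged enriched replicate 1 and aged control replicate 1. The highest ranked of the reverse kind lay on chromosome 2 at 180422851 to 180425200, with scores of 112 and 230 in young control samples, and was present in all 4 aged samples as well.

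By age, 1 end region had a peak in all 4 aged and no young sample, against a background of 0.00957% of all regions, and 36 (0.725%, background 0.894%) had a peak in all 4 young and no aged sample. The 1 aged region lay on chromosome 2 at 180203365 to 180205154, with scores of 70.6 and 166 in aged enriched and 50.0 and 58.0 in aged control samples. It ranked at 68.2% and 86.8% in the aged enriched lists but only at 0.081% and 26.5% in the aged control lists. The leading young region lay on chromosome 16 at 95585979 to 95587418, with scores of 140 and 140 in young enriched and 72.0 and 133 in young control samples. By housing, 1 end region had a peak in all 4 enriched and no control sample (background 0.014%), on chromosome 11 at 120699455 to 120701297. The reverse held for 8 (0.161%, background 0.209%), led by chromosome 2 at 180966848 to 180968803 with scores of 152 and 94.2 in aged control and 197 and 116 in young control samples. Shares near the background say nothing particular about the ends, and counts of 1 region are too few to read. Leaving out single samples moved the counts to between 1 and 8 and between 46 and 101 for age, and to between 0 and 6 and between 8 and 31 for housing.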

How the data were processed

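The data were 8 lists of 5hmC peaks, 1 per sample, with a position and a score for each peak as deposited by the authors. The score is the authors' value and was used only to rank or filter peaks within a list. Reads were handled with Bowtie 0.12.9, CASAVA 1.4 and MACS 1.4.2 on build mm9, per the submitters' processing notes. The sources used here give no caller settings, background library or read numbers, so depth is unknown and no counting interval was computed. Longer lists may reflect more reads or better capture as well as more 5hmC.

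Peaks were assigned to ends by midpoint. Within-list ratios were tested by exact sign-flip permutation, groups by exact permutation of 4 samples against 4 on log2 values, and segments by limma 3.58.1 in R 4.3.3 with a trend, 4 groups sharing 1 spread and Benjamini-Hochberg adjustment over all segments. The fit was tested on simulated data. Comparisons of 2 samples with 2 have a smallest exact p of 0.333 and carry no test of single values. Regions were made by merging peaks that shared 1 bp or more. Other steps used Python 3.11.15, numpy 2.4.6, pandas 2.3.3, scipy 1.17.1 and matplotlib 3.10.9. Named were the 3 densest and 3 sparsest ends, ends called by limma, the ends of smallest p by comparison and direction, the 6 shared regions of highest median rank, the widest region and the top group-specific regions; other ends and regions were described after their values were seen. Members, lists and tests were chosen with earlier results of these data known. Alternatives covered the end length, score minimum, list length, pseudocount, filter, normalization, overlap and each sample in turn. Gene names come from the RefSeq table of GRCm38 and were not joined to mm9 peaks. X peaks were left out.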

Additional observations from a re-analysis of the deposited data

Results flagged for a closer look

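Among the 4 young samples, young control replicate 1 stood apart from the other 3 in the share of its list at chromosome ends, at 3.45%, and in its density ratio of ends to rest, at 1.46. Both values come from the same peaks, and the critical value used is one that chance passes in about 1 in 20 groups of samples. They lay within the range of the aged samples.

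The housing difference in the share of high-score end peaks ran in opposite directions by age. The ratio of ends to rest was 1.05 and 0.931 in aged enriched and 1.12 and 1.32 in aged control samples, and 1.18 and 1.31 in young enriched and 1.10 and 1.09 in young control samples. Every aged enriched value was below every aged control value, and every young enriched value above every young control value. The difference between the 2 housing differences was -0.48 on the log2 scale (exact permutation test, p = 0.0556, the smallest possible, so it cannot pass the threshold). The measure was flagged for this full separation in opposite directions. That separation fixes the p at its smallest value, so the p adds no support.

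The X chromosome was not among the chromosomes studied, but its last 3 Mb held 23 of its 129 peaks. These were 2 and 4 in aged enriched, 4 and 4 in aged control, 1 and 2 in young enriched and 2 and 4 in young control samples.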

How the results depend on the processing

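Depth is unknown, 2 samples per group allow few assignments, and ends were defined by the peaks themselves. The density excess of the ends kept its direction under every alternative run except the last Mb alone, where its log2 ratio was -0.52. The width ratio reversed there (-0.017) and without chromosomes 4 and 11 (-0.00037), and the high-score ratio was 0.15 and missed the threshold at scores of at least 100 (exact p = 0.117) and reversed without those chromosomes (-0.058). The age difference in end share, near 0, reversed for ends of 5 Mb (-0.0054), at scores of at least 100 (-0.0013), in equally long lists (-0.030), by length (-0.0042) and between -0.019 and 0.034 without single samples. The housing difference stayed between -0.091 and -0.053 without single samples.

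Ends called in aged mice numbered 5 with 4 added peaks, where 23.9% of all segments were called. With 0.25 added peaks there were 2, beside 12.5% of segments. With the added amount in proportion to list length there were also 2, beside 12.4% of segments. They numbered 3 in equally long lists, beside 25.1% of segments. All 3 were lower in aged enriched samples, and neither chromosome 9 nor 17 was among them. At scores of at least 100 there was 1, beside 6.28% of segments. In 1 Mb segments, with quantile normalization and with the aged samples alone, 0 ends were called, beside 3.81%, 2.45% and 3.27% of segments. Calls in aged mice, for age and for housing over all mice moved without single samples, over the ends and over all segments. Among named ends in young mice, chromosome 12 reversed in equally long lists (0.21), chromosome 14 without young control replicate 2 (-0.015) and chromosome 5 without young enriched replicate 1 (-0.023).

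Regions of all 8 samples made up 0.679% of end and 0.611% of other regions at scores of at least 100, and 0.0201% and 0.0290% where peaks had to cover at least 50% of a region. At scores of at least 100, group-specific end regions numbered 8 in aged enriched, 76 in aged control, 19 in young enriched, 38 in young control, 0 in aged, 0 in enriched and 2 in control samples alone. In equally long lists they numbered 38 in aged enriched, 140 in aged control, 66 in young control, 0 in aged, 11 in young and 3 in enriched samples alone. Without single samples the counts ran from 32 to 490 in aged enriched, 418 to 1268 in aged control, 134 to 504 in young enriched, 271 to 854 in young control, 1 to 8 in aged, 46 to 101 in young, 0 to 6 in enriched and 8 to 31 in control samples. A rule over fewer samples is easier to meet, and other causes were not tested. These counts stand without the matching share of all regions, so they say nothing particular about the ends.

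The replicate numbers did not pair the samples: deviations of same-numbered samples correlated between -0.102 and 0.194 over 6 pairs of groups. With the replicate number as a block, 3 ends were again called in aged mice and 0 in the other comparisons, and all segments called in aged mice numbered 84 instead of 112. The end shares under the block had exact p = 0.944 for age and 0.111 for housing.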
